A study of Mus musculus with 8 samples.

Results

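The genes described here are 10 markers of pluripotent cells and of primordial germ cells (PGCs), the embryonic precursors of eggs and sperm: *Pou5f1* (also called *Oct4*), *Nanog*, *Sox2*, *Zfp42* (*Rex1*), *Utf1*, *Dppa2*, *Dppa3* (*Stella*), *Dppa4*, *Prdm1* (*Blimp1*) and *Tfap2c* (*AP-2γ*, named *Tcfap2c* in the files). The set is defined by these gene names. The array carried 11 probes for them, 2 for *Zfp42* and 1 for each other gene, among 41101 non-control probes. Of these, 10 probes for 9 genes passed the filter on dim signals, which 18265 probes in all passed. The *Nanog* probe did not pass and was not tested.

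The samples came from an RNA immunoprecipitation (RIP) with an antibody against DAZL, an RNA-binding protein of germ cells. Lysates of whole gonads of MCH mouse embryos at E14.5 (days of embryonic age), in lots of 50 gonads, were measured before the pull-down (input) and after it (IP), in XX and in XY, with 2 arrays for each of the resulting 4 groups. No gene was altered and no agent was given in any group. An input was 5% of the cleared lysate, and cRNA was labelled from 50 ng of input RNA but only 1 ng of precipitated RNA. The arrays used here include no IP with a control antibody, so recovery could be read only against the input. The XX arrays shared 1 slide and the XY arrays another, so sex and slide cannot be told apart. Nothing in the labels says that the 2 arrays of a group came from separate lots, so the p-values measure only the spread between these arrays, which may be technical.

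As background, POU5F1, NANOG and SOX2 are the transcription factors at the core of the pluripotency network, and ZFP42, UTF1 and the DPPA proteins are found with them in embryonic stem cells and early germ cells. PRDM1 and TFAP2C are transcription factors that specify PGCs, which switch the pluripotency genes on again. After PGCs settle in the gonad, XX germ cells enter meiosis and XY germ cells enter mitotic arrest, and the pluripotency genes are shut down over this period. DAZL binds the untranslated ends of germ cell mRNAs and is known for promoting their translation. In RIP, mRNAs held by the antibody's target take a larger share of the precipitated RNA than of the input RNA. *Pou5f1* served elsewhere in the study as a negative control for binding by another protein, NANOS2.

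Every level below is the log2 signal of a probe relative to the 75th percentile of all probes on its array, so 0 is the 75th percentile and 1 unit is 2-fold. Such levels compare the same probe between arrays, and levels of different probes enter together only where a marker list is summed. A probe is called detected on an array when the scanner software marked it as well above background. An array's lowest detected signal lay between −3.59 and −2.34 on the 4 inputs but between 0.03 and 1.02 on the 4 IP arrays. The 75th percentile was thus a detected level on the inputs but lay below every detected signal on the IP arrays. A difference between IP and input is therefore taken against unlike references, a background level on the IP side. On the input arrays 16713 to 20391 probes were detected, and on the IP arrays 6068 to 9468. The 18009 probes detected on no array still had a median IP minus input difference of 3.61 in XX and 3.32 in XY (log2), which is the difference that background alone has on this scale. Of the 11 probes of interest, 7 were detected on both XX input arrays, 10 on both XY input arrays, 4 on both XX IP arrays and 6 on both XY IP arrays. The germ cell markers *Dazl*, *Ddx4* and *Kit* were detected on all 8 arrays.

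**Figure D1:**
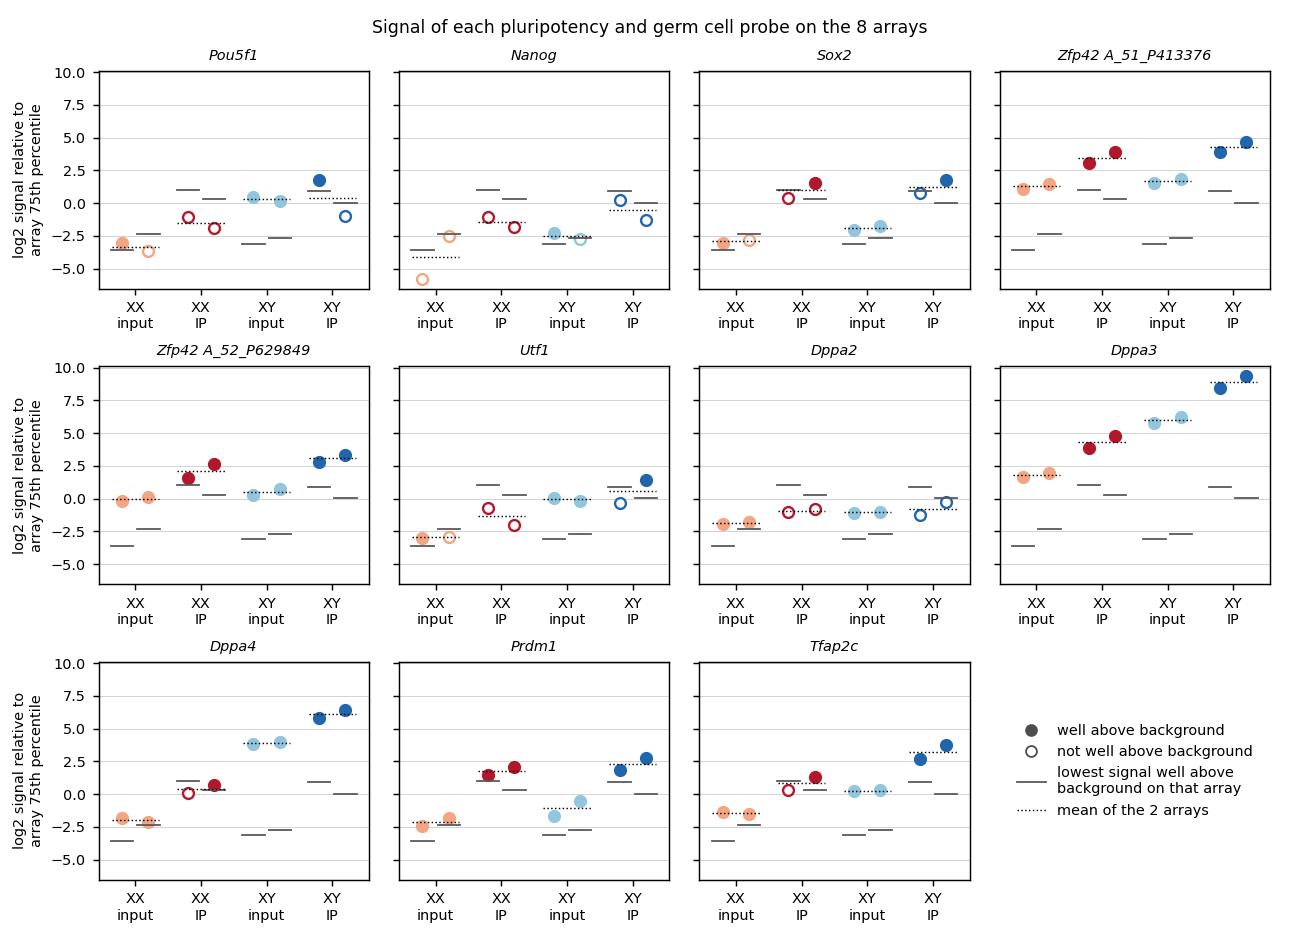
Log2 signal relative to the array's 75th percentile (vertical axis) for each of the 11 probes on the 2 arrays of each group (horizontal axis). Filled points were well above background and open points were not; short grey lines mark the lowest signal well above background on each array and dotted lines the mean of 2 arrays. *Dppa3*, *Prdm1* and both *Zfp42* probes are filled in all 8 positions, *Nanog* in 1, and the grey lines sit higher on the IP arrays (0.03 to 1.02) than on the inputs (−3.59 to −2.34).

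Recovery with DAZL was tested first. Of the 10 tested probes, 7 were enriched at least 4-fold in the XX IP, with an adjusted p under 0.05 by limma, and the same 7 were enriched in the XY IP. They belong to 6 genes: *Sox2*, *Zfp42*, *Dppa3*, *Dppa4*, *Prdm1* and *Tfap2c*. These calls are relative to the 75th percentile, and 0 of the 10 probes were called in either sex when arrays were centred on their 50th percentile, and likewise 0 under normexp background correction. Few of all 18265 tested probes were called there, 189 in XX and 219 in XY with the 50th percentile, and 69 and 21 with normexp. Under the 75th percentile, 14.0% of all 18265 tested probes were called enriched in XX and 10.2% in XY. The median IP minus input difference of the 10 probes was 2.20 in XX and 2.60 in XY (log2), against 0.09 and −0.03 over all tested probes. None of the 10 was depleted at least 4-fold in either sex, whereas 9.91% of tested probes were depleted in XX and 7.68% in XY. Both IP arrays lay above both input arrays for 10 of the 10 probes in XX, as for 40.2% of all tested probes, and for 7 of the 10 in XY, as for 35.4%. Of the 10, *Pou5f1*, *Utf1* and *Dppa2* were detected on neither XX IP array and *Sox2*, *Dppa4* and *Tfap2c* on only 1. Probes detected on no array had a median difference of 3.61 in XX and 3.32 in XY. How much of this order is background was not tested. Among the 4206 probes detected on all 8 arrays the difference was larger where the input level was lower (Spearman −0.60 in XX and −0.57 in XY, across probes, with the input level entering both measures).

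The probes of interest detected on all 8 arrays were 4, which stand for *Dppa3*, *Prdm1* and *Zfp42*. All 4 were called enriched in both sexes, as were 24.7% of the 4206 probes detected on all 8 arrays in XX and 20.0% in XY. The median difference of the 4 was 2.33 in XX and 2.76 in XY, beside 0.56 and 0.41 for all probes so detected. Their places in that distribution ran from percentile 77.1 to 96.9 in XX and from 87.3 to 94.3 in XY. The highest place in each sex was that of *Prdm1*, whose calls were lost with the common floor described below.

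*Dppa3* encodes STELLA, a protein of PGCs and oocytes that protects the maternal genome from demethylation after fertilization. Its probe, A_51_P195044, covers chr6:122595735-122595794 on the plus strand of mm8, the build of the files. The *Dppa3* level was 1.65 and 1.97 on the XX input arrays, 3.82 and 4.81 on the XX IP arrays, 5.76 and 6.23 on the XY input arrays, and 8.46 and 9.35 on the XY IP arrays. Every array of one group lay apart from every array of the others, with XX input lowest and XY IP highest. In XX the IP exceeded the input by 2.51 ± 0.48 (log2 difference ± SE, 5.70-fold; limma adjusted p = 0.00136). In XY it did so by 2.91 ± 0.48 (7.53-fold; limma adjusted p = 0.000831).

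*Prdm1* encodes the repressor BLIMP1, which sets aside the PGC lineage. Probe A_51_P338746 lies at chr10:44125900-44125959 on the minus strand. *Prdm1* was dim in the inputs, at −2.42 and −1.79 in XX and −1.64 and −0.49 in XY, and stood at 1.47 and 2.08 on the XX IP arrays and at 1.88 and 2.74 on the XY IP arrays. The IP and input arrays of each sex did not overlap, and the IP levels of the sexes did. The difference was 3.88 ± 0.51 in XX (14.8-fold; limma adjusted p = 0.000187) and 3.38 ± 0.51 in XY (10.4-fold; limma adjusted p = 0.000518). These are close to the median difference of the probes that were never detected (3.61 and 3.32). With a common floor, every signal raised to the highest of the arrays' lowest detected signals, the difference was 0.75 in XX (limma adjusted p = 0.298) and 1.29 in XY (limma adjusted p = 0.097). With normexp background correction it was 1.45 and 0.52, and with outlying local backgrounds replaced before normexp 1.45 and 1.25. How much of it is the background of the IP arrays was not tested.

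*Zfp42* encodes REX1, a zinc finger protein long used to mark undifferentiated cells. Its 2 probes lie on the minus strand of chromosome 8, A_51_P413376 at chr8:44794130-44794189 and A_52_P629849 at chr8:44794170-44794241, so they overlap and are no independent measurements. The first gave levels of 1.09 and 1.48 in XX input, 3.02 and 3.86 in XX IP, 1.53 and 1.84 in XY input, and 3.90 and 4.68 in XY IP. The second gave −0.16 and 0.10, 1.54 and 2.64, 0.25 and 0.71, and 2.78 and 3.36 in the same order. With either probe the IP arrays lay above the inputs and the input arrays of XX below those of XY. The first differed by 2.16 ± 0.45 in XX (4.46-fold; limma adjusted p = 0.0024) and 2.61 ± 0.45 in XY (6.10-fold; limma adjusted p = 0.00116), and the second by 2.12 ± 0.46 and 2.59 ± 0.46. The XX values stood just above the 4-fold limit and fell below it, at 1.96 and 1.99, without XX input replicate 1, and at 1.74 and 1.57 without XX IP replicate 2.

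*Dppa4* and *Tfap2c* were detected on all input arrays and both XY IP arrays, but on only 1 of the 2 XX IP arrays. *Dppa4*, whose product binds DNA together with DPPA2 in pluripotent cells, is read by probe A_51_P346600 at chr16:48213486-48213545 on the plus strand. It gave −1.81 and −2.13 in XX input, 0.09 and 0.73 in XX IP, 3.83 and 3.98 in XY input, and 5.85 and 6.44 in XY IP. All 4 XY arrays lay far above the XX arrays. The IP exceeded the input by 2.39 ± 0.42 in XX (5.23-fold; limma adjusted p = 0.000867) and by 2.24 ± 0.42 in XY (4.72-fold; limma adjusted p = 0.00178). Without XY IP replicate 2 the XY difference was 1.94, below the 4-fold limit. Both differences fell below it under quantile normalization (1.94 in XX and 1.95 in XY) and scaling to probes detected on all arrays (1.96 and 1.91). The XX call was also lost with the common floor.

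*Tfap2c* encodes AP-2γ, which acts downstream of PRDM1 in PGC specification. Probe A_51_P418820 lies at chr2:172249565-172249624 on the plus strand. The *Tfap2c* level was −1.35 and −1.49 in XX input, 0.34 and 1.32 in XX IP, 0.22 and 0.33 in XY input, and 2.72 and 3.75 in XY IP. The XY IP arrays were the highest and the XX input arrays the lowest, and XX IP lay just above XY input. The differences were 2.25 ± 0.47 in XX (4.75-fold; limma adjusted p = 0.0025) and 2.96 ± 0.47 in XY (7.77-fold; limma adjusted p = 0.000745). Without XX IP replicate 2 the XX difference was 1.76, under the 4-fold limit. It was also under that limit with scaling to probes detected on all arrays (1.82), quantile normalization (1.94) and the common floor.

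*Sox2*, the partner of POU5F1 on many pluripotency enhancers, was near the limit of detection throughout. Probe A_52_P307739, at chr3:34843400-34843459 on the plus strand, was detected on 1 of 2 XX input, 1 of 2 XX IP, 2 of 2 XY input and 1 of 2 XY IP arrays. Its levels were −3.06 and −2.79, 0.40 and 1.56, −2.09 and −1.79, and 0.79 and 1.72 in that order of groups. IP lay above input in both sexes, by 3.90 ± 0.49 in XX (limma adjusted p = 0.000154) and 3.19 ± 0.49 in XY (limma adjusted p = 0.000569). These differences are about the size that the undetected probes have (3.61 and 3.32), and 1 of the 2 IP arrays of each sex did not detect *Sox2*. With the common floor both calls were lost, at 0.27 in XX (limma adjusted p = 0.901) and 0.35 in XY (limma adjusted p = 0.759). How much of them is the background of the IP arrays was not tested.

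**Figure D2:**
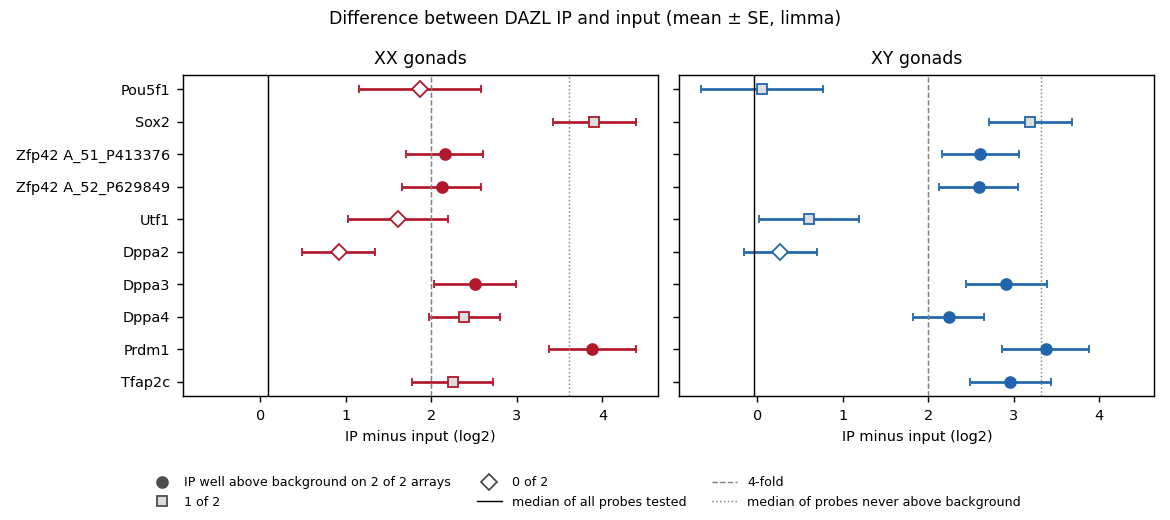
IP minus input difference (horizontal axis, log2, limma estimate with SE bars, 2 arrays a group) of the 10 tested probes in XX and in XY gonads. Circles, squares and diamonds mark probes well above background on 2, 1 or 0 of the 2 IP arrays; 7 probes lie beyond the dashed 4-fold line in both sexes and *Pou5f1*, *Utf1* and *Dppa2* in neither. Scaling to the 50th percentile shifts all 10 probes alike, by −2.01 in XX and −1.86 in XY, and none then passes the dashed line.

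*Pou5f1*, *Utf1* and *Dppa2* did not reach the limits in either sex. *Pou5f1* is read by probe A_51_P202340 at chr17:35118388-35118448 on the plus strand. The *Pou5f1* level was −3.06 and −3.67 on the XX input arrays, −1.07 and −1.92 on the XX IP arrays, 0.50 and 0.19 on the XY input arrays, and 1.78 and −0.98 on the XY IP arrays. It was detected on 1 of 2 XX input arrays, on neither XX IP array, on both XY input arrays and on 1 of 2 XY IP arrays. The XY IP arrays lay on either side of the XY inputs. The fitted difference was 0.06 ± 0.71 in XY (limma adjusted p = 0.956; 95% interval −1.50 to 1.62). In XX it was 1.87 ± 0.71 (limma adjusted p = 0.0475), but both XX IP signals were not well above background and no fold can be given. The 95% interval in XY includes a 2-fold change in either direction. The XY value turned with the array used, to −1.32 without XY IP replicate 1 (limma adjusted p = 0.0581) and to 1.44 without XY IP replicate 2 (limma adjusted p = 0.0366).

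**Figure D3:**
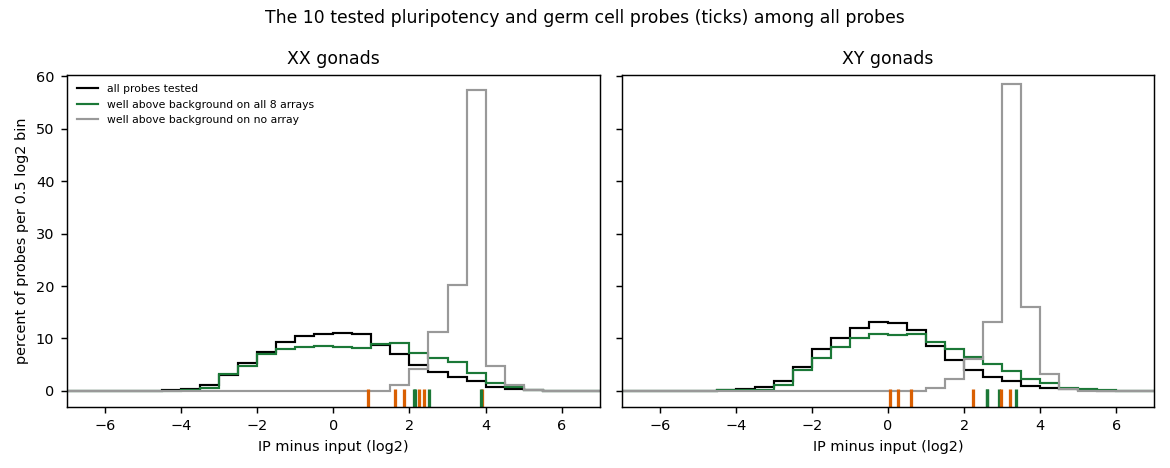
Distribution of IP minus input differences (horizontal axis, log2, bins of 0.5) as percent of probes (vertical axis) for all 18265 tested probes, for the 4206 probes well above background on all 8 arrays and for the 18009 well above background on none. Ticks below 0 on the vertical axis mark the 10 tested probes of interest, green where detected on all 8 arrays; the undetected probes pile up around 3.61 in XX and 3.32 in XY, and the ticks span 0.92 to 3.90 in XX and 0.06 to 3.38 in XY.

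*Utf1*, a chromatin factor of pluripotent cells, gave a like pattern to *Pou5f1* in XX. Probe A_51_P237206, at chr7:139795541-139795600 on the plus strand, stood at −3.02 and −2.90 in XX input, −0.71 and −2.00 in XX IP, 0.04 and −0.16 in XY input, and −0.33 and 1.42 in XY IP. Neither XX IP array detected it, 1 of 2 XX inputs and 1 of 2 XY IP arrays did, and in XY the IP arrays again straddled the inputs. The difference was 1.61 ± 0.58 in XX (limma adjusted p = 0.0385) and 0.60 ± 0.58 in XY (limma adjusted p = 0.429). Without XX IP replicate 2, whose signal was the lower, the XX difference was 2.25 and passed both limits.

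*Dppa2*, the partner of DPPA4, was detected on all 4 input arrays and on none of the 4 IP arrays. Probe A_52_P16249, at chr16:48238303-48238362 on the plus strand, gave −1.94 and −1.76 in XX input, −1.05 and −0.82 in XX IP, −1.07 and −1.02 in XY input, and −1.27 and −0.27 in XY IP. The IP levels all lay in the range where IP arrays detect nothing. The difference was 0.92 ± 0.43 in XX (limma adjusted p = 0.0948) and 0.27 ± 0.43 in XY (limma adjusted p = 0.639), and no fold is given. *Nanog*, read by probe A_51_P294233 at chr6:122679692-122679751 on the plus strand, was detected on XY input replicate 1 alone. Its levels were −5.78 and −2.49 in XX input, −1.04 and −1.81 in XX IP, −2.32 and −2.73 in XY input, and 0.23 and −1.32 in XY IP. Any recovery of *Nanog* or *Dppa2* below the lowest detected IP signal (0.03 to 1.02) was not measurable here.

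The sizes of these differences depend on the scaling. Scaling to the 50th percentile instead of the 75th moved every probe down alike, so that the median difference of all tested probes became −1.92 in XX and −1.90 in XY. Relative to the median of all tested probes nothing changed: the 7 enriched probes stood 2.03 to 3.82 above it in XX and 2.27 to 3.41 in XY, and *Pou5f1* stood 1.78 above it in XX and 0.09 in XY under both scalings. Under quantile normalization this order turned for *Pou5f1*, which stood at −0.09 relative to the median in XX and 0.92 above it in XY, with an XX difference of −0.84 (limma adjusted p = 0.539). Taken against 0, however, no probe of the 10 was called enriched under the 50th percentile, with *Zfp42* (A_51_P413376) at 0.15 in XX (limma adjusted p = 0.859), *Dppa4* at 0.38 (limma adjusted p = 0.622) and *Sox2* at 1.90 (limma adjusted p = 0.0591). Quantile normalization gave the 7 probes differences of 1.94 to 3.33 in XX and 1.95 to 3.27 in XY, with the median of all tested probes at −0.74 and −0.73. With normexp background correction the 7 stood at 0.35 to 1.49 in XX and 0.28 to 0.61 in XY, and none was 4-fold enriched. This correction compressed XY input replicate 1, where the middle 50% of spots spanned 0.12 log2 units, and XY IP replicate 2, where they spanned 0.06. With the outlying local backgrounds replaced (24 and 8 spots) they spanned 1.39 and 0.29, and the 7 probes stood at 0.15 to 1.25 in XY and 0.35 to 1.49 in XX, still none 4-fold enriched. With the common floor 2 of the 7 stayed called in XX, *Dppa3* and the first *Zfp42* probe, while the second fell to 1.07, *Tfap2c* to 0.15 and *Dppa4* to 0, and in XY all but *Prdm1* and *Sox2* stayed called. The offset of 50 that normexp adds exceeds the signal at the 75th percentile of each IP array (6.83 to 13.1 scanner units).

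**Figure D4:**
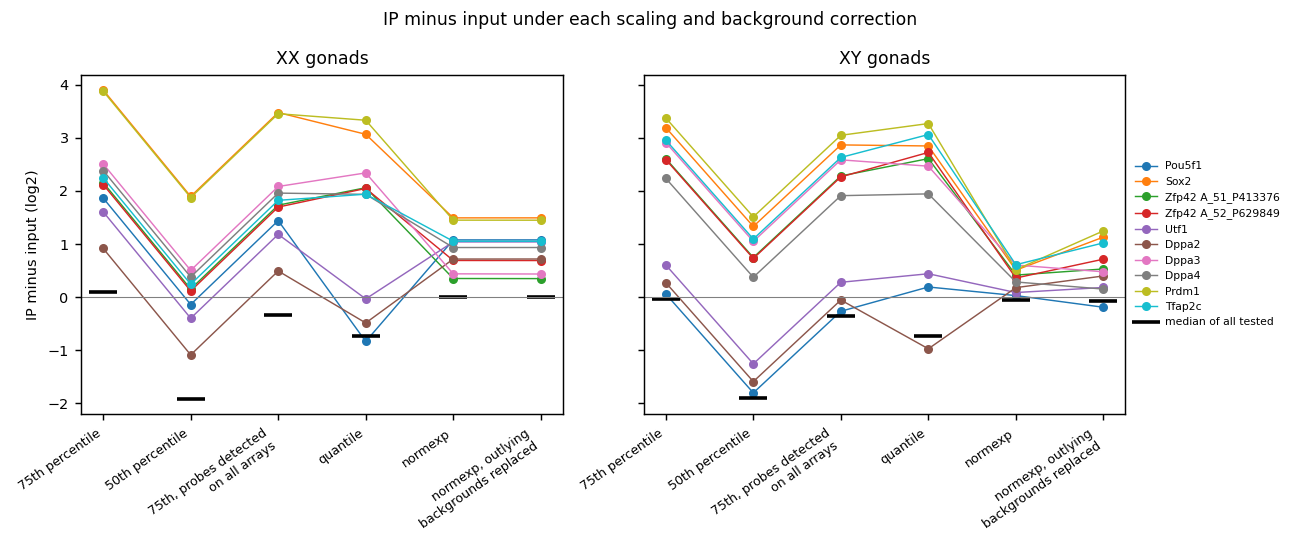
IP minus input difference (vertical axis, log2) of the 10 tested probes under 6 ways of scaling or background correction (horizontal axis), in XX and XY gonads, with black bars for the median of all tested probes. Lines join the same probe; the first 3 scalings move the probes and the median together (median 0.09, −1.92 and −0.34 in XX), and with normexp the 7 enriched probes come within 0.35 to 1.49 in XX.

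The second comparison asks whether recovery differed between XX and XY gonads. None of the 10 probes passed the test of the difference between the sexes by limma (adjusted p from 0.418 to 0.941, 0 at an unadjusted p under 0.05), a test that 3.30% of all probes passed. With the common floor 1 did, *Dppa4*, whose estimate turned from 0.15 to −2.24 (limma adjusted p = 0.0258), all 4 of its XX levels being under that floor. The estimates for the 6 enriched genes were within 1 log2 unit of 0, from −0.71 ± 0.67 for *Tfap2c*, lower in XX, to 0.71 ± 0.69 for *Sox2*, higher in XX. Their 95% intervals were wide. That of *Dppa3* ran from −1.87 to 1.06, that of *Dppa4* from −1.14 to 1.44 and that of *Prdm1* from −1.06 to 2.07, so differences of 2-fold in either direction remain within each of them. The largest estimate was that of *Pou5f1*, at 1.81 ± 1.01 (limma adjusted p = 0.418). It rests on 2 XX IP signals that were not well above background, and its direction turned with the processing, to −1.03 under quantile normalization (limma adjusted p = 0.731) and −0.38 with a common floor on dim signals (limma adjusted p = 0.938). It became 3.19 (limma adjusted p = 0.0282) without XY IP replicate 1, the 1 XY IP array that detected *Pou5f1*. The lone XY IP array was then assumed to vary like the other groups, and all 3 IP signals left were not well above background.

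The third comparison is that of the starting RNA. All 10 tested probes had a lower mean in XX input than in XY input, and the difference passed the test for 5 of them: *Dppa4*, *Dppa3* and *Tfap2c*, detected on all 4 input arrays, and *Pou5f1* and *Utf1*, which entered the test through XY input alone. Over all tested probes 6.10% were higher in XY input and 5.87% higher in XX input. Because *Pou5f1*, *Utf1* and *Sox2* passed the filter on dim signals through XY input alone, a lower XX value was built into their selection, and their input differences are given as a description. The input RNA is from whole gonads, where fewer germ cells and less RNA per germ cell cannot be told apart.

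*Dppa4* differed most, by −5.88 ± 0.42 (58.8-fold higher in XY; limma adjusted p = 7.0e-06), and 0.17% of tested probes had a more negative value. *Dppa3* followed at −4.19 ± 0.48 (18.2-fold; limma adjusted p = 0.000144). Both passed the test under every scaling and background correction tried, but the sizes moved: *Dppa4* stood at −3.27 with normexp, −4.11 with outlying backgrounds replaced and −2.88 with the common floor, and *Dppa3* at −3.09, −3.98 and −4.19. *Pou5f1*, at −3.70 ± 0.71, and *Utf1*, at −2.90 ± 0.58, were each detected on 1 of the 2 XX input arrays, and stood at −1.36 and −1.12 with normexp and at 0 with the common floor. *Tfap2c*, at −1.70 ± 0.47 (3.24-fold; limma adjusted p = 0.0365), no longer passed when any one of the 4 input arrays was left out, with adjusted p values of 0.153 to 0.216. The others were *Prdm1* at −1.04 ± 0.51, *Sox2* at −0.99 ± 0.49, *Dppa2* at −0.81 ± 0.43, and the *Zfp42* probes at −0.40 ± 0.45 and −0.51 ± 0.46, none past the test. The neighbours *Prdm1*, *Sox2* and *Dppa2* in this order lie within their errors of each other, as do *Dppa3* and *Pou5f1*.

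Germ cell markers did not move one way with these genes. *Dazl* was higher in XX input with both of its probes, by 1.54 ± 0.39 (limma adjusted p = 0.0225) and 1.22 ± 0.39 (limma adjusted p = 0.0672). Of the 6 germ cell markers, each on its best detected probe, all 6 were detected on every input array, 1 was higher in XX input, *Tex101*, and 1 in XY input, *Dnd1*. Their summed signal relative to the 75th percentile was 292.5 to 345.4 in XX input and 148.7 to 166.7 in XY input, but without *Tex101* the direction turned, and the other 5 summed to 101 to 110.8 in XX and 120.3 to 132.1 in XY. Sertoli markers, by contrast, summed to 1.04 to 1.15 in XX and 27.0 to 30.95 in XY input, with 1 and 4 of the 4 detected on both arrays. The 4 Leydig markers on the array summed to 2.43 to 3.49 and 77.3 to 82.3, with 2 and 4 detected. Pregranulosa markers went the other way, at 89.06 to 90.55 in XX and 12.73 to 13.61 in XY input, with 3 and 2 of the 4 detected. *Amh* and *Dhh*, which define Sertoli cells, were not well above background on either XX input array. The mesonephros markers *Pax2* and *Pax8* were not well above background on any of the 8 arrays. The other marker of that list, *Lhx1*, was detected on 1 of 2 XX input arrays and on both XY input arrays. What part the makeup of the gonads has in the differences of *Dppa3*, *Dppa4* or *Pou5f1* was not tested.

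**Figure D5:**
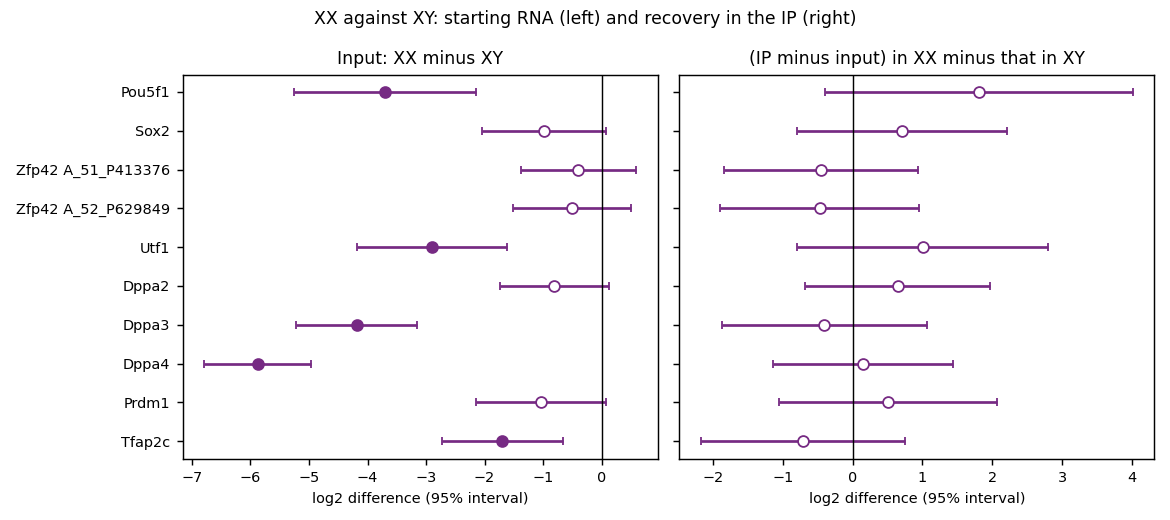
Left, log2 difference between XX and XY input; right, the difference in IP minus input between XX and XY gonads, for the 10 tested probes with 95% intervals (limma, horizontal axes in log2). Filled points passed an adjusted p of 0.05: 5 do on the left, all lower in XX from −1.70 to −5.88, of which *Pou5f1* and *Utf1* entered the test through XY input alone, and none on the right.

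Starting level and recovery were then set side by side. *Dppa4* differed most between the inputs, and its IP minus input difference was 2.39 in XX and 2.24 in XY. Under the common floor these became 0 and 2.24. *Dppa3*, next in the inputs but ahead of *Dppa4* there with the common floor, had 2.51 and 2.91. For *Pou5f1* the XY value was 0.06, or −1.32 and 1.44 with either XY IP array left out. All of *Pou5f1*, *Utf1* and *Tfap2c* were detected on both XY input arrays, but only *Tfap2c* among them was detected on both XY IP arrays.

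*Dazl*, the mRNA of the precipitated protein itself, gives a reference for recovery. Both of its probes were detected on all 8 arrays, and one, A_52_P271166, rose from 5.30 and 5.39 to 8.23 and 7.83 in XX and from 3.92 and 4.33 to 6.33 and 6.04 in XY. Its differences were 2.69 ± 0.39 (6.44-fold; limma adjusted p = 0.00031) and 2.06 ± 0.39 (4.17-fold; limma adjusted p = 0.00201), and those of the other probe, A_51_P246060, were 3.09 ± 0.39 and 2.93 ± 0.39. *Prdm1* (3.88 in XX and 3.38 in XY) and *Sox2* (3.90 and 3.19) lay above both *Dazl* probes in each sex, but not with the common floor, where *Prdm1* (0.75 and 1.29) and *Sox2* (0.27 and 0.35) lay below them and the *Dazl* values did not move. In XX, *Dppa3*, *Dppa4*, *Tfap2c* and *Zfp42* (2.12 to 2.51) lay below both *Dazl* probes, and in XY (2.24 to 2.96) they lay between the *Dazl* values or, for *Tfap2c*, just above them; these distances were not tested.

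Other genes of the pluripotency network were described from a list of 30, of which 27 were on the array and 22 were tested. In XX, 11 of the 22 were called enriched (14.0% of all tested probes were), but only 3 of these 11 were detected on both XX IP arrays, and 1, *Tbx3*, was depleted (9.91% of all tested probes were). In XY, 6 were enriched (10.2% of all tested probes were), all 6 detected on both XY IP arrays, and none depleted (7.68% of all tested probes were). The median difference of the 22 was 1.98 in XX and 1.03 in XY, beside 0.09 and −0.03 for all tested probes, but 8 of the 22 were detected on no XX IP array and 6 on no XY IP array. Over the 10 detected on all 8 arrays it was 0.73 in XX and 1.15 in XY, beside 0.56 and 0.41 for all probes so detected. The largest rises among those detected on both IP or both input arrays were of *Lin28a*, an RNA-binding protein that blocks let-7 maturation (3.06 ± 0.47 in XX, 3.50 ± 0.47 in XY), *Tfcp2l1*, a factor of naive pluripotency (2.73 and 3.44), and *Lin28b* (2.51 and 2.68). *Lin28a* and *Lin28b* were detected on only 1 of the 2 XX IP arrays, and with the common floor their differences were 0.05 and 0.37 in XX and 2.09 and 0.40 in XY. *Tbx3* was called lower in the XX IP, at −2.09, but was detected on neither XX IP array, so this is no exact size. In the inputs 7 of the 22 were higher in XY (6.10% of all tested probes were) and none higher in XX, but 5 of the 7, *Esrrb*, *Tcl1*, *Lefty2*, *Nodal* and *Sall4*, passed the filter through XY arrays alone, which built a lower XX value into their selection. In recovery, *Lefty2* and *Nodal* passed the test between the sexes, but both were detected on the XY input arrays alone.

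A list of 20 further PGC genes, which shares *Dppa5a* and *Prdm14* with the first, had 18 on the array and 17 tested. Of the 17, 7 were enriched in XX, 3 of them detected on both XX IP arrays, and 7 in XY, 6 of them detected on both XY IP arrays, beside the same 14.0% and 10.2% of all tested probes. The median difference was 1.04 in XX and 0.54 in XY, beside 0.09 and −0.03, with 8 of the 17 detected on no XX IP array and 4 on no XY IP array. Over the 6 detected on all 8 arrays it was 2.30 and 1.92, beside 0.56 and 0.41. *Tex19.1*, a germline protein that restrains retrotransposons, rose most among the genes detected on both IP or both input arrays, by 4.88 in XX and 4.86 in XY. Among these it was followed in XX by *Kit*, the receptor for stem cell factor (2.89), and *Dazl*, and in XY by *Cxcr4*, the receptor that guides PGC migration (3.71), and *Kit* (3.12). With the common floor *Kit* stood at 1.45 in XX and 2.04 in XY, and *Cxcr4* at 1.54 in XY. *Dazl*, at 2.69 and 2.06, then lay above them, and *Tex19.1* did not move. *Ifitm1*, an interferon-induced membrane protein used as an early PGC marker, fell by 2.70 in XX and stood at −1.78 in XY, where 1 of the 2 IP arrays detected it. Its relative *Ifitm3*, called depleted in XX, was detected on all 4 inputs and on no IP array, so its differences of −2.12 and −1.79 end at the background of the IP arrays and give no exact size. In the inputs 6 of the 17 were higher in XY, beside 6.10% of all tested probes, and none higher in XX, but 3 of the 6, *Nanos3*, *Nanos2* and *Cxcr4*, likewise passed the filter through XY arrays alone. *Nanos3*, which passed the test between the sexes in recovery, was detected on the XY input arrays alone.

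The 3 genes whose levels over the 8 arrays were most like those of *Pou5f1* were *Ifrd2* (Pearson r = 0.958), *Map3k21* (0.957, named *BC021891* in the files) and *Dntt* (0.953), among 14726 named probes detected on at least as many arrays. The 8 points fall into 4 groups and share the height of background on the IP arrays. *Ifrd2* and *Map3k21* were detected on the 4 input arrays and on no IP array, and *Dntt* on the 4 inputs and 1 XY IP array. In XX input *Ifrd2* stood at −1.74 and −1.89, and in XY input at −0.62 and −1.10. All 3 had, like *Pou5f1*, a lower mean in XX than in XY input, and none was detected on an XX IP array. Because the 3 were chosen for their likeness to *Pou5f1* over these same arrays, a shared order of the inputs was built into the choice.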

How the data were processed

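The deposited scanner files give an intensity per spot of 8 one-colour Agilent whole mouse genome arrays, background-subtracted in Feature Extraction (version 9.5.3.1 in the headers), with a surrogate for dim spots; these values were not normalized between arrays. A deposited table of log2 values, made by the authors by setting values under 1 to 1 and scaling to the 75th percentile, served as an alternative.

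Outlier spots were dropped, signals were floored at 1, spots sharing a probe were averaged, and log2 signals were taken relative to the array's 75th percentile over 41101 non-control probes. Probes detected (well above background) on the 2 arrays of at least 1 group were tested with limma 3.58.1 in R 4.3.3 over all 8 arrays, 1 mean per group (two-sided, Benjamini-Hochberg over 18265 probes). Calls needed an adjusted p under 0.05 and, for IP against input, a 4-fold difference. No probe was saturated. Arrays give no counting depth, and 2 arrays per group limit the precision. The fit was tested on simulated data. Probes were named by accession, symbol or older symbol through the RefSeq gene table of GRCm38.p6, and 8132 of 41101 stayed unnamed. Positions are those of the files (mm8), for which no annotation was used, so exons are not given.

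The members and lists were chosen with earlier results of these data known. Named were all probes of the 10 genes, the largest called rises and falls of each list (up to 3, detected on both IP or both input arrays, best detected probe per gene), *Dazl*, and the 3 genes most correlated with *Pou5f1*. Alternatives covered scaling, background correction, dim signals, the filter, the table, the test, the arrays used, the replicate number and each array left out.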

Additional observations from a re-analysis of the deposited data

How the results depend on the processing

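No member was depleted under any alternative. The deposited table, the unfiltered probes (8 enriched in XX, the added one being *Nanog*), only the 4 arrays of a comparison and quantile normalization kept the counts of enriched probes within 1.5 times (5 to 8 in XX, 6 to 7 in XY). Without the filter, 23327 of all 41101 probes were called enriched in XX and 22372 in XY, with median differences of 2.54 and 2.38. *Nanog* was detected on none of the 4 XX arrays. Scaling to the 50th percentile left 0 enriched in XX, 0 in XY and 3 different between inputs, and so did normexp correction (0, 0 and 3). Replacing outlying local backgrounds before normexp left 0 and 0. Over all tested probes these settings in turn called 189, 69 and 69 enriched in XX and 219, 21 and 70 in XY. The test without moderated variances called 0 and 0 with the same differences, and 3 between inputs; over all probes it called 0 in XX and 11 in XY. Scaling to probes detected on all arrays gave 3 in XX. A common floor at the highest of the arrays' lowest detected signals gave 2 in XX, 2 between inputs and 1 between the sexes, *Dppa4*, whose difference in recovery turned from 0.15 to −2.24 because its XX levels all lie under that floor. Testing only probes detected on all 8 arrays left 4 enriched in each sex and 1 different between inputs, of 4 tested. Quantile normalization left 2 different between inputs. Other causes were not tested.

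Leaving out 1 array at a time gave 5 to 7 enriched in XX, 6 to 7 in XY, 4 to 5 different between inputs and 0 to 1 between the sexes. The labels do not say that a replicate number marks anything shared. Deviations of same-numbered arrays correlated at 0.07 between input and IP in XX, 0.09 in XY and 0.28 between the inputs of the sexes, and over probes detected on all 8 arrays at 0.03, 0.14 and 0.52. The main fit treated the replicates as sharing only a number, although the inputs of the sexes reached 0.52. What same-numbered inputs may share was not tested. With a replicate block the counts were 7, 7, 5 between inputs and 0 between the sexes, and over all probes 1472 in place of 602 differed between the sexes.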
